A study of Mus musculus with 12 samples.

Results

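The genes described here encode the hepatocyte growth factor (HGF) activation and MET axis: the ligand Hgf, its receptor Met, the activating proteases Hgfac, Hpn and St14, the Kunitz inhibitors Spint1 and Spint2, and urokinase Plau with its receptor Plaur. They were taken by gene symbol, 9 of the 45706 genes in the table, and each symbol matched 1 row. Hgfac was chosen by its TPM, since it rose the most among a list of liver genes when sorted hypoxic cells were set against unsorted normoxic cells, so its values are described without a test, and that contrast is described without a test for every member.

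RNA-seq was performed on BN1-Tie2-EGFP cells, a murine hepatoblastoma (HB) line from a single FVB/N liver tumor driven by mutant β-catenin (B) and NRF2 (N). All 4 groups share these drivers, the Crispr/Cas9 targeting of exon 2 of Cdkn2a, which encodes p16 and p19, and EGFP under the promoter of Tek, the gene for the endothelial receptor Tie2. The unsorted cultures were grown in 21% oxygen (UN) or for 2 days in 1% oxygen (UH). The sorted cultures began as EGFP+ cells collected by flow sorting after 2 days of hypoxia, were grown out for about 10 days in 21% oxygen (SN), and in the SH group then spent another 2 days in 1% oxygen, with 3 libraries in each group. The reporter line was a pool of stably transfected clones, the sample titles call every culture EGFP+ whether sorted or not, and the libraries of a group are described as independent replicas without saying whether sorted ones came from separate sorts, so that the spread between libraries may be partly technical.

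HGF is secreted as an inactive single chain, in the liver mainly by stellate and other mesenchymal cells, and it signals through the receptor tyrosine kinase MET on hepatocytes and their progenitors only after proteolytic cleavage. HGF activator (Hgfac), made by hepatocytes as a plasma zymogen, and the membrane serine proteases hepsin (Hpn) and matriptase (St14) carry out that cleavage, and the transmembrane inhibitors HAI-1 (Spint1) and HAI-2 (Spint2) block them. Urokinase, held at the cell surface by its receptor Plaur, activates plasminogen and has also been described to cleave pro-HGF, and the axis is best known in the liver for regeneration and in cancer for motility and invasion.

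Promoter sequences are shown for the gene whose rise led to the choice of this set and for the ligand and receptor. Of the 9 members, 7 have a window in the RefSeq table (build GRCm38.p6), which holds 250 bases before and 50 after each start site. St14 and Plau are not among them. Motifs were searched on both strands: ACGTG, the core bound by hypoxia-inducible factors, GCGTG, its common variant, TGANTCA of AP-1, TGACNNNGC of NRF2, and ATCAAAG of the TCF/LEF partners of β-catenin. Capitals mark the matches.
Hgfac, 250 bases upstream, chr5:35041259-35041508, plus strand: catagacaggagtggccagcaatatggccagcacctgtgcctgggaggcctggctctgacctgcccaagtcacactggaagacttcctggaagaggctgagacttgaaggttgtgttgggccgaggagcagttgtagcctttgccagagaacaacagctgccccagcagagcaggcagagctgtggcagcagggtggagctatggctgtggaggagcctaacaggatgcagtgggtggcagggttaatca
Hgfac, 25 bases after the start site, chr5:35041532-35041556, plus strand: ctgccctggcCACGTtccctggcta
Hgf, 250 bases upstream, chr5:16553245-16553494, plus strand: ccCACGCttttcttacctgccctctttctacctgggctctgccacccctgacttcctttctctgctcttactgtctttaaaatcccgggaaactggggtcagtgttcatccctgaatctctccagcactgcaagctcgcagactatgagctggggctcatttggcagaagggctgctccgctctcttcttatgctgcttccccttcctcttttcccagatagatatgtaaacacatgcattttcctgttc
Met, 30 bases upstream, chr6:17463819-17463848, plus strand: gggacgaacagaCACGTGctggggcgggta
Met, 30 bases upstream nearer the start site, chr6:17463900-17463929, plus strand: gGCTGAGTCAcgggccgggcagggcGCGTG

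In GENCODE M21 (GRCm38) all 9 members are protein coding, with Hgf at chr5:16553495-16620152 and Hgfac at chr5:35041509-35048461 on the plus strand of the same chromosome, and Met at chr6:17463800-17573980. The Met gene model there starts before the RefSeq start site, so both Met stretches lie inside it. The upstream stretch of Hgfac held none of the searched letters, and its only match, an ACGTG on the minus strand, lay at bases 34 to 38 after the start. Met held the palindrome CACGTG from base -126, which reads as ACGTG on both strands, a GCGTG from -32 and a TGAGTCA from -54 that overlaps a TGACNNNGC match on the minus strand from -56. Upstream of Hgf the sole match was a GCGTG on the minus strand from -248, with a TGACTTAGC at 33 to 41 after the start. Among the other members, Hpn held ACGTG from -109, Plaur TGACTCA from -69, Spint1 a GCGTG match at 3 places and TGACTCA across the start site, and Spint2 a GCGTG match at 2 places and a TGACNNNGC match from -122. Hgf and Hpn each have a further RefSeq window, at chr5:16553651-16553950 and chr7:31110948-31111247, and none of the searched motifs matched in it. No member held ATCAAAG. Of 32851 windows of the same length, 19.6% held ACGTG, 32.4% GCGTG, 7.81% TGANTCA, 12.4% TGACNNNGC and 3.73% ATCAAAG. Such matches are letters in a window and do not show that a factor binds there.

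Values are TPM, relative transcript abundances that are corrected for length and sum to 1000000 in each library, so levels can be compared between genes but the sequencing depth is unknown. Pearson's r across genes was 0.977 to 0.991 within groups. Tek, the reporter's source gene, was at 0.0853 to 0.226 TPM in unsorted and 2.07 to 3.29 TPM in sorted libraries, and 11 of 12 genes of the low oxygen response were called higher in both UH and SH cells than in their normoxic counterparts. The Cdkn2a transcript was at 196 to 327 TPM in UN, 66.4 to 78.7 TPM in UH, 10.4 to 16.5 TPM in SN and 7.37 to 9.32 TPM in SH libraries. Its level does not check the edit, which changes exon 2 and not the promoter. Hepatocyte markers were sparse: Alb did not exceed 4.23 TPM, and the 13 markers summed to 4.74 to 13.4 TPM in unsorted and 40.4 to 61.7 TPM in sorted libraries, where nearly all of it was Trf. One unsorted normoxic library stood apart: 12 stellate and fibroblast markers summed to 5267 TPM in UN replicate 1, against 1347 and 1199 TPM in the other UN libraries and 4987 to 7244 TPM in UH libraries.

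All comparisons came from a single limma fit to log2(TPM + 1) of the 18909 genes averaging 0.1 TPM or more. A gene is named as called where its p, adjusted by Benjamini-Hochberg, was under 0.05 and its change exceeded 2-fold on that scale, which understates changes of genes near or below 1 TPM. All log2 fold changes below are on it. All 9 members passed the filter, but St14 did so only through SH cells, since its mean over the other groups was 0.0400 TPM. The 8 members counted below, all but Hgfac, include St14. It was called in none of the 5 comparisons as reported, which is not read as a result. The comparisons share groups with one another, so their results are not independent. Without UN replicate 1, the members called numbered 3 instead of 4 in SN against UN cells and 2 instead of 1 in the difference of responses, and the number was unchanged in UH against UN, SH against SN and SH against UH cells.

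**Figure D1:**
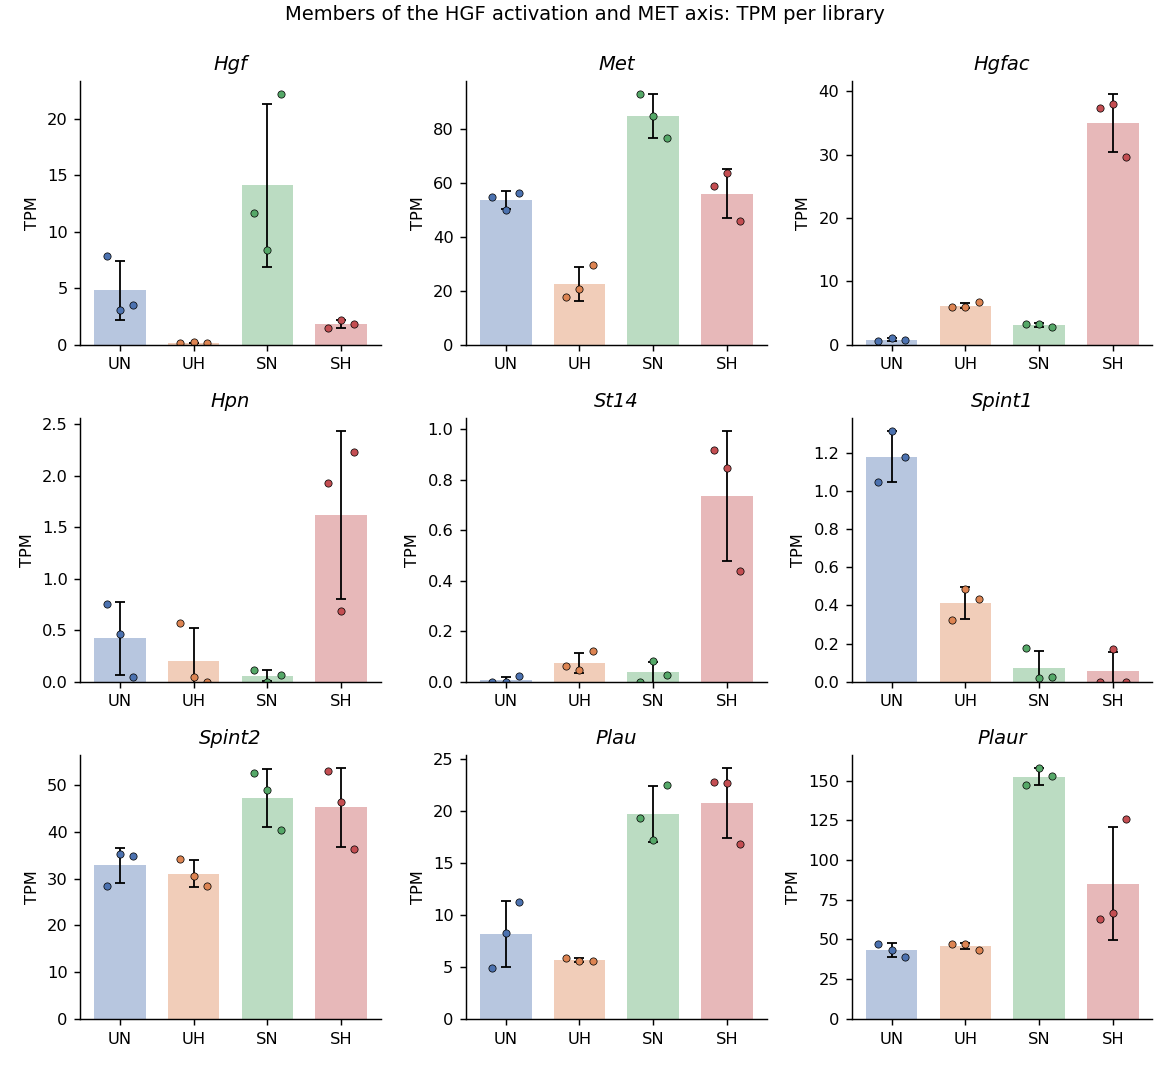
Level of each member in TPM (vertical axes, a separate linear scale from 0 for each gene) in unsorted cells in normoxia (UN) and hypoxia (UH) and in sorted cells in normoxia (SN) and hypoxia (SH). Bars are means, error bars SD, points the 3 libraries of a group, and the 4 groups step apart without overlap for Hgfac, from 0.758 TPM in UN to 35.0 TPM in SH cells, and for Hgf, from 0.163 TPM in UH to 14.1 TPM in SN cells.

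Hgfac, the activator itself, stood at 0.600, 1.02 and 0.660 TPM in UN cells, 5.88, 5.96 and 6.69 TPM in UH cells, 3.22, 3.27 and 2.76 TPM in SN cells, and 37.4, 37.9 and 29.6 TPM in SH cells. The 4 groups did not overlap, in the order SH, UH, SN and UN, and each stood apart from its neighbour. By the group means of 0.758 ± 0.225, 6.18 ± 0.443, 3.08 ± 0.283 and 35.0 ± 4.63 TPM (SD, n = 3) for UN, UH, SN and SH, hypoxia went with an 8.14-fold higher level in unsorted cells and an 11.3-fold higher level in sorted cells. Sorted cells held 4.06 times the level of unsorted cells in normoxia and 5.67 times in hypoxia, which gives 46.1-fold between SH and UN cells, the contrast by which the gene was picked. On the log2(TPM + 1) scale the hypoxic difference was 2.03 in unsorted and 3.13 in sorted cells, and the gap between the responses, 1.10, was 0.56 with a pseudocount of 0.1. By that mean, Hgfac in SH cells ranked above 69.1% of the 13508 genes at 1 TPM or more.

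The genes whose pattern lay nearest to Hgfac over the 12 libraries, among 13566 with a mean of at least 1 TPM, were Ankk1 (Pearson's r = 0.994), Rassf7 (0.994), Cirbp (0.993), Cd68 (0.990) and Coro6 (0.989). The points are 12 libraries in 4 groups with shared treatments, so r describes likeness only. Cirbp, an RNA-binding protein induced by cold and hypoxia, was at 35.8, 74.3, 55.6 and 183 TPM in UN, UH, SN and SH cells. Cd68, a lysosomal protein best known from macrophages, was at 3.09, 13.4, 7.88 and 53.9 TPM, and of the other macrophage genes Csf1r was at 2.91, 7.21, 3.55 and 5.83 TPM and Lyz2 at 1.26, 1.18, 0.549 and 0.530 TPM. The Kupffer cell marker Clec4f was at 0 in every library, and Ptprc, the pan-leukocyte marker, at 0.121 TPM or less. The 8 leukocyte and Kupffer markers summed to 5.03 to 9.69 TPM in UN, 21.5 to 22.6 TPM in UH, 9.69 to 14.5 TPM in SN and 58.6 to 62.6 TPM in SH cells, a sum led by Cd68, and the part of such cells in the level of Hgfac was not tested.

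The other activating proteases were scarce. Hepsin (Hpn), a membrane protease of hepatocytes, was at 0.755, 0.461 and 0.0433 TPM in UN, 0.567, 0.0448 and 0 TPM in UH, 0.113, 0 and 0.0694 TPM in SN, and 1.93, 0.688 and 2.23 TPM in SH cells. The SH libraries lay above every UH and SN library and overlapped the UN libraries, of which replicate 1 exceeded the lowest SH value. Matriptase (St14), an epithelial membrane protease, was listed at 0 in 2 UN libraries and 1 SN library and did not exceed 0.121 TPM outside SH cells, where it was at 0.919, 0.847 and 0.439 TPM. All SH libraries thus held more St14 than any other library.

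In SH against SN cells, 2 of the 8 members other than Hgfac were called, beside 12.5% of all genes (7.47% higher and 5.0% lower): Hpn was higher (log2 fold change 1.25, SE 0.262, adjusted p = 0.0026) and Hgf was lower. The rise of Hpn in SH over UH cells (1.09, adjusted p = 0.00575) was called, but fell to 0.98, 0.99 and 0.92 without UH replicate 3, SH replicate 1 or SH replicate 3, and to 0.95 after quantile normalization, each under the 2-fold threshold. Hypoxia went with no called change in unsorted cells (-0.24, 95% interval -0.81 to 0.34, adjusted p = 0.501). The hypoxic response of Hpn was larger in sorted cells by 1.48 (SE 0.371, adjusted p = 0.0156), the only call among 8 members for this difference, beside 10.3% of all genes (8.08% higher and 2.18% lower), and its adjusted p was 0.0524 after quantile normalization. Values of St14 differed by 0.73 between SH and SN cells and by 0.68 between SH and UH cells, below the 2-fold threshold, and by 2.60 and 2.22 with a pseudocount of 0.1. No p or interval is given for St14, since SH cells alone carried it past the filter. A processed pseudogene, Gm16071, lies antisense within St14 over 793 bases and was at 0 to 0.215 TPM, and whether the counting used strand is not given in the sources used here.

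The Kunitz inhibitors moved differently from each other. Spint1 (HAI-1) was at 1.05, 1.31 and 1.17 TPM in UN, 0.323, 0.485 and 0.432 TPM in UH, 0.177, 0.0210 and 0.0236 TPM in SN, and 0, 0.173 and 0 TPM in SH cells. The UN libraries were the highest, the UH libraries came next without overlap, and SN and SH libraries overlapped at the bottom. Spint1 was called lower in SN than in UN cells (log2 fold change -1.02, SE 0.109, adjusted p = 3.2e-05), a change just past the threshold that reached -0.98, -0.99 and -0.99 without UN replicate 2, SN replicate 2 or SN replicate 3, -0.94 with median-of-ratios scaling and -0.86 with quantile normalization. Between UH and UN cells its value was -0.62 (adjusted p = 0.000622), and between SH and UH cells -0.42 (adjusted p = 0.00917), neither of which reached 2-fold, though with a pseudocount of 0.1 both did (-1.32 and -1.86).

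Spint2 (HAI-2), a broad inhibitor of membrane serine proteases, made up 96.4% to 100% of the inhibitor TPM in every library. It was at 28.6, 35.4 and 34.8 TPM in UN, 34.1, 30.6 and 28.5 TPM in UH, 52.6, 48.9 and 40.4 TPM in SN, and 53.1, 46.5 and 36.4 TPM in SH cells. Sorted libraries were all above unsorted ones, and hypoxic and normoxic libraries overlapped within each kind of cell. The differences of 0.51 between SN and UN cells (95% interval 0.18 to 0.84, adjusted p = 0.0224) and of 0.52 between SH and UH cells (0.18 to 0.85, adjusted p = 0.0174) stayed under 2-fold. Hypoxic differences were -0.08 (-0.41 to 0.26) in unsorted and -0.07 (-0.40 to 0.26) in sorted cells, and the first turned positive, 0.27 and 0.25, under median-of-ratios scaling and quantile normalization, and the second under the latter, 0.05.

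Summed over the 3 proteases, TPM were 1.19 ± 0.403 in UN, 6.46 ± 0.381 in UH, 3.18 ± 0.283 in SN and 37.3 ± 4.37 in SH cells (SD, n = 3), of which Hgfac made up 44.3% to 98.5% across libraries. The inhibitors summed to 34.1 ± 3.90, 31.5 ± 2.77, 47.4 ± 6.34 and 45.4 ± 8.44 TPM. Protease transcripts per inhibitor transcript therefore stood at 0.0354, 0.206, 0.0674 and 0.830 in UN, UH, SN and SH cells, with 0.758 to 0.888 in the SH libraries and no more than 0.235 elsewhere. This ratio rests on Hgfac and is given without a test, and transcripts do not measure protein or activity.

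**Figure D2:**
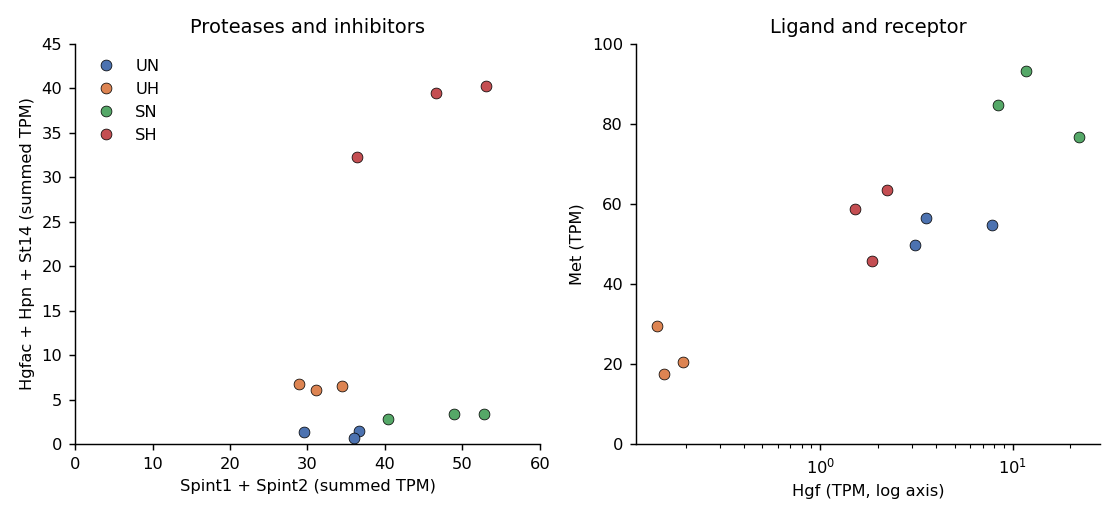
Left, summed TPM of the proteases Hgfac, Hpn and St14 (vertical) against summed TPM of the inhibitors Spint1 and Spint2 (horizontal); right, Met (vertical, TPM) against Hgf (horizontal, TPM on a log axis), 1 point per library and 1 color per group. SH libraries, at 32.3 to 40.2 TPM of protease, sit above all others, at inhibitor sums of 36.4 to 53.1 TPM that overlap those of SN libraries (40.4 to 52.8 TPM), and UH libraries hold the lowest Hgf and Met.

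The ligand moved the opposite way in hypoxia. Hgf was at 7.84, 3.11 and 3.53 TPM in UN, 0.155, 0.193 and 0.141 TPM in UH, 11.7, 8.42 and 22.3 TPM in SN, and 1.52, 2.22 and 1.86 TPM in SH cells. No groups overlapped, in the order SN, UN, SH and UH, and the spread was widest in SN cells (14.1 ± 7.23 TPM, SD, n = 3). Mean Hgf was 29.6-fold lower in UH than in UN cells and 7.58-fold lower in SH than in SN cells, and both falls were called (log2 fold change -2.24, adjusted p = 0.000183, and -2.30, adjusted p = 0.000207; SE 0.332). The test of the difference between these responses gave -0.07 (95% interval -1.09 to 0.96, adjusted p = 0.935), and 1.36 with a pseudocount of 0.1 (adjusted p = 0.102), and it also was above 0 without UN replicate 2 (0.14), UN replicate 3 (0.07), SN replicate 3 (0.30) or SH replicate 1 (0.02).

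Between sorted and unsorted cells, Hgf was higher in both oxygen conditions, by 1.36 in normoxia (adjusted p = 0.00796) and 1.29 in hypoxia (adjusted p = 0.00852). The normoxic call was lost without SN replicate 3, the highest library (0.9957, under the 2-fold threshold), and in a fit of the SN and UN libraries alone (adjusted p = 0.0661), while without UN replicate 1 it was 1.70 (adjusted p = 0.00123). Stellate cells and fibroblasts are the usual source of Hgf, and their 12 markers summed to 1199 to 5267 TPM in UN, 4987 to 7244 TPM in UH, 204 to 213 TPM in SN and 59.1 to 79.1 TPM in SH cells, with Lrat, the defining stellate marker, at 0 in every library. Collagens held the largest part of the sum in unsorted cells. In UN, UH, SN and SH cells Col1a1 was at 704, 3051, 6.66 and 22.2 TPM. Col1a2 was at 312, 883, 0.313 and 0.512 TPM in that order, and Col3a1 at 785, 1747, 1.18 and 1.30 TPM. The other markers of the list did not move together in hypoxia. Some had lower means, as Hgf did. Pdgfrb was at 44.7, 15.2, 43.8 and 6.08 TPM and Dcn at 172, 53.8, 119 and 25.4 TPM in UN, UH, SN and SH cells. Pdgfra was at 142, 28.4, 1.59 and 0.313 TPM and Acta2 at 393, 305, 30.5 and 4.09 TPM in that order. The means of both were lower in sorted than in unsorted cells, whereas those of Hgf were higher. Others rose: Tagln, in unsorted cells only, was at 51.4, 116, 2.23 and 1.66 TPM in the same order. Des, which rose in both kinds of cell, was at 0.731, 1.03, 1.41 and 8.89 TPM. The part of such cells in the level of Hgf was not tested. In bulk RNA, fewer cells of a type and less RNA per cell cannot be told apart. Provisional gene models of the annotation, Gm43489 and Gm42975, overlap Hgf on its own strand over 993 and 1491 bases and were at 0 to 1.98 and 0 to 0.279 TPM, and how reads were shared with them was not tested.

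Met, the receptor, was far more abundant than its ligand. It was at 54.8, 49.8 and 56.4 TPM in UN, 17.5, 20.5 and 29.5 TPM in UH, 93.2, 84.8 and 76.6 TPM in SN, and 58.8, 63.5 and 45.8 TPM in SH cells. SN libraries were the highest and UH libraries the lowest, and SH and UN libraries overlapped in between. In UH against UN cells 2 of 8 members were called, beside 17.2% of all genes (5.46% higher and 11.8% lower), and both were lower: Hgf, above, and Met (log2 fold change -1.25, SE 0.176, adjusted p = 0.000123). The fall in Met was -0.90 and -0.94 under median-of-ratios scaling and quantile normalization, below the 2-fold threshold with adjusted p = 0.000243 and 0.000294. The median of all genes was -0.19 in this comparison as deposited and 0 after median-of-ratios scaling.

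In sorted cells the hypoxic difference of Met was -0.60 (95% interval -0.98 to -0.21, adjusted p = 0.0172), under 2-fold. The difference between the responses, 0.65, did not pass the test (95% interval 0.11 to 1.19, adjusted p = 0.0819). Met was called higher in SH than in UH cells (1.30, adjusted p = 0.000128), whereas the normoxic difference between sorted and unsorted cells was 0.65 (adjusted p = 0.0137), again under 2-fold. Met transcripts per Hgf transcript numbered 13.0 ± 5.20 in UN, 143 ± 57.4 in UH, 7.16 ± 3.39 in SN and 30.7 ± 7.25 in SH cells (SD, n = 3). Closest in pattern to Met over the 12 libraries were Cep192 (r = 0.996), E2f7 (0.992), Palb2 (0.991), Bag4 (0.991) and Nrp1 (0.988), as a description only. Of these, Nrp1, a co-receptor for semaphorins and VEGF that also binds HGF, was at 41.2, 15.9, 70.4 and 39.8 TPM in UN, UH, SN and SH cells.

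**Figure D3:**
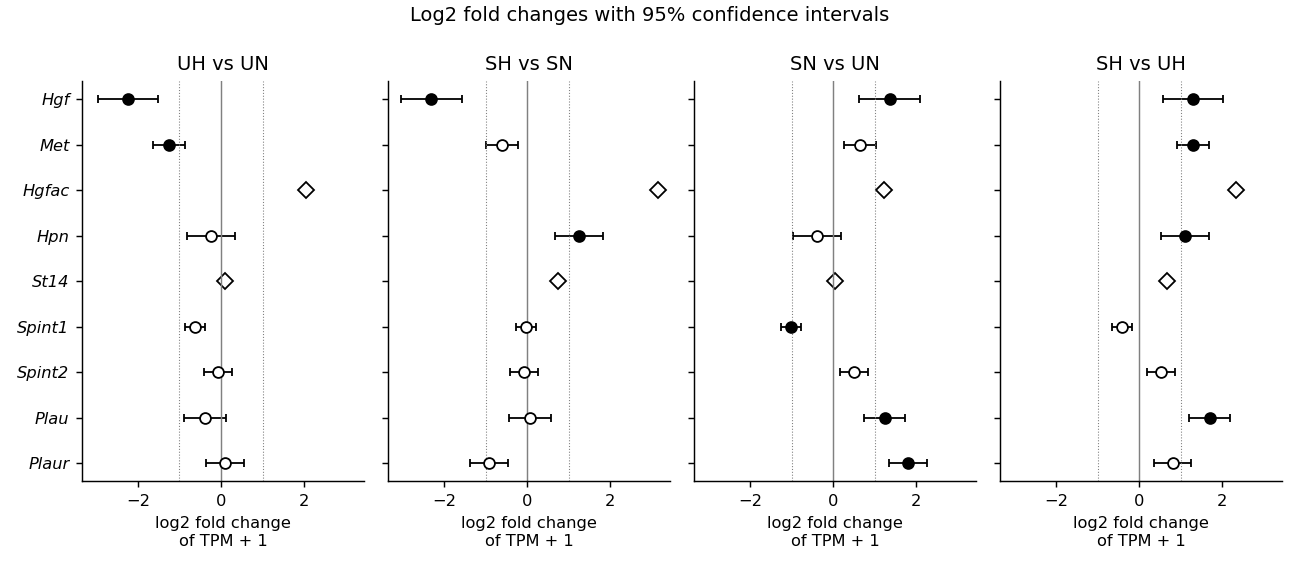
Log2 fold change of TPM + 1 (horizontal) for each member in 4 comparisons, with 95% confidence intervals from limma. Filled circles were called, open circles were not, dotted lines mark a 2-fold change, and diamonds give Hgfac and St14, without interval or test. Hgf and Met lie to the left in hypoxia, and Plau and Plaur to the right in sorted cells.

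Urokinase was higher in sorted than in unsorted cells in both oxygen conditions. Plau was at 4.89, 8.30 and 11.2 TPM in UN, 5.88, 5.55 and 5.61 TPM in UH, 19.3, 17.2 and 22.5 TPM in SN, and 22.8, 22.7 and 16.9 TPM in SH cells. Every sorted library was above every unsorted one, and hypoxic and normoxic libraries overlapped within each kind of cell. In SN against UN cells 4 of 8 members were called, beside 10.8% of all genes (3.2% higher and 7.57% lower), with Hgf, Plau (1.23, SE 0.229, adjusted p = 0.00149) and Plaur higher and Spint1 lower. Without UN replicate 1, the lowest UN library for this gene, the value for Plau was 0.95, under 2-fold (adjusted p = 0.00149). In SH against UH cells 4 of 8 members were called, beside 13.0% of all genes (7.65% higher and 5.35% lower), and Hgf, Met, Hpn and Plau (1.69, SE 0.229, adjusted p = 0.000129) were all higher. Hypoxic differences of Plau were -0.39 (95% interval -0.89 to 0.11) in unsorted and 0.07 (-0.43 to 0.57) in sorted cells, and neither passed the test (adjusted p = 0.191 and 0.855).

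Plaur, the membrane-anchored urokinase receptor, was at 47.4, 43.4 and 38.7 TPM in UN, 46.9, 47.5 and 43.6 TPM in UH, 147, 158 and 153 TPM in SN, and 62.8, 66.6 and 126 TPM in SH cells. SN libraries were above all others, SH libraries came next, and UN and UH libraries overlapped. Its level in SN cells, 153 ± 5.45 TPM (SD, n = 3), was the highest of any member, and exceeded that in UN cells by 1.80 on the log2 scale (SE 0.207, adjusted p = 5.52e-05). Hypoxia went with a fall by 0.91 in sorted cells (adjusted p = 0.00432), under 2-fold, which was -1.22 and called without SH replicate 3, the library at 126 TPM. In unsorted cells the same difference was 0.09 (95% interval -0.36 to 0.55, adjusted p = 0.756). The response differed between sorted and unsorted cells by -0.9999 (SE 0.293, adjusted p = 0.0313), at the edge of the 2-fold threshold and not past it, and this value was -1.07, -1.04 and -1.32 and called without UN replicate 1, UH replicate 3 or SH replicate 3. It was also called without mitochondrial genes (-1.01), after quantile normalization (-1.18), with a pseudocount of 0.1 (-1.01) and under median-of-ratios scaling (-1.34). In hypoxia sorted cells exceeded unsorted ones by 0.80 (adjusted p = 0.0088), under 2-fold.

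As a check on the single members other than Hgfac and St14, the exact two-sided permutation test of library labels gave p = 0.1, the smallest that 3 libraries against 3 allow, wherever the libraries of both groups did not overlap, and of all genes 51.1% did not overlap between UH and UN, 56.8% between SH and SN, 49.0% between SN and UN, 51.7% between SH and UH, and 59.4% between SH and UN libraries. For SH against UN cells, described without a test, log2 fold changes were -0.94 for Hgf, 0.05 for Met, 4.35 for Hgfac, 0.86 for Hpn, 0.77 for St14, -1.04 for Spint1, 0.44 for Spint2, 1.30 for Plau and 0.89 for Plaur, and 20.3% of all genes were called in that contrast.

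Lists of other genes of the pathway were counted in the same fit. The shares of all genes called, to set beside every list count, were 5.46% higher and 11.8% lower in UH against UN cells and 7.47% and 5.0% in SH against SN cells. They were 3.2% and 7.57% in SN against UN cells and 7.65% and 5.35% in SH against UH cells. Of 12 co-receptors, relatives and partners of MET, 1 was called higher and 4 lower in UH against UN cells (median -0.29, against -0.19 for all genes), and 5 were higher and none lower in SH against UH cells (median 0.71, against 0.17). The 4 lower genes became 2 with median-of-ratios scaling, the 1 higher gene was lost without UN replicate 2, and the 5 higher genes in SH cells became 2 with median-of-ratios scaling, 3 with quantile normalization and 3 without UH replicate 1, with 1 lower under either scaling or a pseudocount of 0.1. In SH against SN cells 1 was called higher and none lower (median 0.07, against 0.03), with 3 higher at a pseudocount of 0.1. In SN against UN cells 2 were higher and 1 lower (0.30, against -0.06). The 2 higher became 1 without UN replicate 3. The 1 lower became 2 with a pseudocount of 0.1 or without mitochondrial genes, UN replicate 1 or SN replicate 2. Mst1, macrophage stimulating protein, is the closest relative of HGF and another substrate of HGF activator. It was at 1.01 to 3.53 TPM in UN, 4.61 to 5.57 TPM in UH, 6.05 to 8.34 TPM in SN and 31.9 to 33.3 TPM in SH cells. The groups did not overlap, and Mst1 was called higher in UH than in UN cells (1.18, adjusted p = 0.00245), in SH than in SN cells (2.05, adjusted p = 7.26e-05), in SN than in UN cells (1.57, adjusted p = 0.000615) and in SH than in UH cells (2.44, adjusted p = 1.81e-05). The first of these fell under 2-fold, to 0.95, without UN replicate 2. Its receptor Mst1r (RON) stayed between 0.0243 and 1.19 TPM. Cdh1, E-cadherin, which associates with MET in epithelia, was at 9.09 ± 2.87 TPM in UN, 1.48 ± 0.210 TPM in UH, 0.530 ± 0.0424 TPM in SN and 0.294 ± 0.0490 TPM in SH cells (SD, n = 3), and was called lower in UH than in UN cells (-1.98, adjusted p = 8.74e-06) and in SN than in UN cells (-2.68, adjusted p = 1.51e-06).

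Of 20 adaptors and negative regulators of MET, 1 was called lower in UH cells and 2 were lower in SN cells, each against UN cells, and none was called in either direction in SH against SN or SH against UH cells. In UH cells the count of lower genes was 0 with either scaling, 2 without UN replicate 1, UH replicate 2 or mitochondrial genes, and 3 without UH replicate 3, while 1 gene was called higher under either scaling, with a pseudocount of 0.1 and without UH replicate 1. In SH against UH cells 1 was called higher without UH replicate 3 or SH replicate 3. The medians of this list were -0.24, 0.10, -0.02 and 0.37 in that order, against -0.19, -0.06, 0.03 and 0.17 for all genes. Gab1, the docking adaptor of MET, was at 20.8 ± 6.44 TPM in UN, 8.06 ± 1.34 TPM in UH, 6.75 ± 0.191 TPM in SN and 9.50 ± 1.09 TPM in SH cells (SD, n = 3). It was lower in UH cells (-1.23, adjusted p = 0.0005; -0.90 and not called with median-of-ratios scaling and -0.93 with quantile normalization) and in SN cells (-1.44, adjusted p = 0.000287). Spsb1, which binds the MET kinase region, was also lower in SN than in UN cells (-1.36, adjusted p = 0.000204).

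Among 12 other serine proteases of the network only 5 passed the filter on low values and none of these was called in any comparison. With a pseudocount of 0.1, 4 were called in at least 1 comparison. Some of them passed the filter only through the group where they were highest, so these calls are not read as results. The group means of Plat, tissue plasminogen activator, were 78.9 to 87.2 TPM, and plasminogen itself (Plg) did not exceed 0.0820 TPM in any library.

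Of the 10 serpins chosen, 8 passed the filter, and in UH against UN cells 3 were called higher and 1 lower (median 0.04, against -0.19 for all genes), and in both SN against UN and SH against UH cells none higher and 3 lower (-0.21 and -0.08, against -0.06 and 0.17). In SH against SN cells 1 was called higher and none lower (0.01, against 0.03). Serping1, the C1 inhibitor, was at 49.5, 5.35 and 5.98 TPM in UN cells, 101 to 135 TPM in UH cells and no more than 0.259 TPM in sorted libraries. Its high UN library is replicate 1, the library with the raised stellate and fibroblast sum, and the part of that sum in the values of Serping1 was not tested.

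Of 12 partners of the urokinase receptor and plasminogen binding proteins, 4 were called higher and none lower in UH against UN cells (median 0.16, against -0.19 for all genes), 3 higher and none lower in SH against SN cells (0.03, against 0.03), and 2 higher and 1 lower in both SN against UN cells (0.04, against -0.06) and SH against UH cells (-0.08, against 0.17). The higher count in SH against UH cells was 1 without UH replicate 1, SH replicate 1 or SH replicate 2 and under both median-of-ratios scaling and quantile normalization. Anxa2, a cell surface plasminogen receptor, and Lrp1, an endocytic receptor that clears proteases from the cell surface, were higher in SH than in SN cells by 1.15 (adjusted p = 4.36e-06) and 1.14 (adjusted p = 0.00305). Both were also higher in hypoxia in unsorted cells. Mean Anxa2 was 1011 TPM in UN and 2088 TPM in UH cells, and Lrp1 was called higher in UH than in UN cells (1.65, adjusted p = 0.00019). The integrin genes Itga3 and Itgb3, whose products bind Plaur or its matrix ligands, were higher in SN than in UN cells by 1.23 (adjusted p = 0.000143) and 1.43 (adjusted p = 0.00013). The gene called lower in both comparisons of sorted with unsorted cells was Mrc2 (-3.23, adjusted p = 0.000311, in normoxia and -5.14, adjusted p = 7.1e-06, in hypoxia). It was higher in UH than in UN cells (2.89, adjusted p = 0.00038). Mrc2 was at 27.8, 5.11 and 4.84 TPM in UN libraries, 61.0 to 85.0 TPM in UH libraries and no more than 1.39 TPM in sorted libraries.

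Finally, 14 ERK feedback and ETS genes, common readouts of receptor tyrosine kinase signaling of any source, were counted. In SN against UN cells 7 were called higher and none lower (median 1.07, against -0.06 for all genes), in SH against SN cells 1 higher and 4 lower (-0.50, against 0.03), in UH against UN cells 4 higher and 2 lower (0.09, against -0.19), and in SH against UH cells 1 higher and none lower (0.21, against 0.17). The 2 lower in UH cells became 1 under either scaling and without UN replicate 1 or UH replicate 1, and the 1 higher in SH against SN cells was lost without SN replicate 1 or mitochondrial genes. In SH against UH cells 2 were lower under either scaling and 1 without UH replicate 1 or SH replicate 3, and 2 were higher with a pseudocount of 0.1 or without SH replicate 2. Dusp6, an ERK phosphatase, was at 23.9 ± 3.50 TPM in UN, 11.6 ± 2.01 TPM in UH, 66.8 ± 5.64 TPM in SN and 33.4 ± 1.64 TPM in SH cells (SD, n = 3). The libraries of these groups did not overlap, and they followed the order SN, SH, UN and UH. Etv4, an ETS factor, was lower in hypoxia in both kinds of cell (-1.41, adjusted p = 0.00019, in UH against UN and -1.50, adjusted p = 0.000166, in SH against SN cells), whereas Fosl1, an AP-1 subunit, was higher in UH than in UN cells (2.49, adjusted p = 3.85e-08) and in SN than in UN cells (1.83, adjusted p = 4.73e-07). MET is 1 of many receptors that feed this list, and its part in these levels was not tested.

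**Figure D4:**
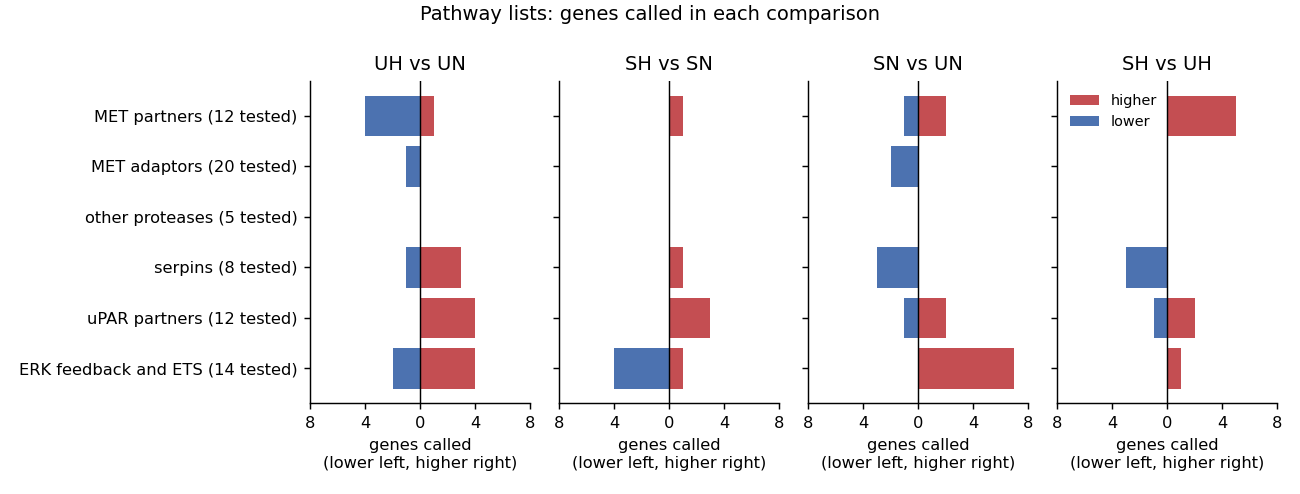
Number of genes called lower (blue, left) and higher (red, right) in each of the 6 pathway lists for 4 comparisons, with the number tested beside each list's name. The ERK feedback and ETS list has 7 genes called higher and none lower in SN against UN cells, where 3.2% of all genes were called higher and 7.57% lower. The other protease list has none called.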

How the data were processed

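RNA from 12 libraries of BN1-Tie2-EGFP cells, with RIN values above 8.0, was sequenced by the authors, who ran the nf-core/rnaseq pipeline (version 3.12.0) and deposited merged gene-level TPM from its Salmon step (mm10 per the submitters' processing notes). The annotation release, the strand setting and the read counts are not given in the sources used here, so depth is unknown and precision is the spread between 3 libraries. Groups were taken from the sample titles.

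For 18909 genes averaging 0.1 TPM or more, log2(TPM + 1) was modelled by limma 3.58.1 under R 4.3.3 (4 group means, empirical Bayes with a trend, Benjamini-Hochberg over all genes tested within a comparison). Calls needed an adjusted p under 0.05 and an absolute log2 fold change above 1. The comparisons were UH with UN, SH with SN, SN with UN, SH with UH, and the difference of responses, (SH - SN) - (UH - UN). Coordinates came from GENCODE M21 (GRCm38), which matched 45143 identifiers, and promoter sequence from RefSeq (GRCm38.p6). Python 3.11.15 served for tables (pandas 2.3.3, numpy 2.4.6), permutation tests (scipy 1.17.1) and plots (matplotlib 3.10.9). The fitting code was tested on simulated data.

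The members and lists were chosen with earlier results of these data known. All 9 members are named, with up to 3 called, non-overlapping genes of largest change per list, comparison and direction (not all printed), the 3 most abundant markers of a list or those at 0, and the 5 genes most like Hgfac and Met. Mst1r, Plat, Plg, Ptprc, Tek, Cdkn2a, Pdgfra, Pdgfrb, Acta2, Dcn, Tagln and Des lie outside this rule and were added after their values were seen. A single gene of the lists, counted within its list, is not reported by name here. Alternatives were a pseudocount of 0.1, no filter or a filter at 1 TPM, median-of-ratios scaling, quantile normalization, TPM without mitochondrial genes, a replicate block, fits of 2 groups alone, moderation without a trend, and leaving out each library.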

Additional observations from a re-analysis of the deposited data

Results flagged for a closer look

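These results were set aside for a closer look because the hypoxic response tested as different between sorted and unsorted cells, as the log2 change in SH against SN cells minus that in UH against UN cells (limma, adjusted p over 18909 genes, of which 10.3% were called). Groups of 3 libraries are too small for a test of single outlying libraries.

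Among the members this was Hpn, with a difference of 1.48 (adjusted p = 0.0156). In the pathway lists the response was higher in sorted cells for Cdh1 (1.74, adjusted p = 0.0015), Gab1 (1.66, adjusted p = 0.00273), Serpinb8 (1.34, adjusted p = 0.0312) and Cd44, a MET co-receptor (1.01, adjusted p = 0.0093). It was lower in sorted cells for Serpinb2 (-3.45, adjusted p = 0.0021), Serping1 (-3.05, adjusted p = 0.024), Dusp4 (-2.79, adjusted p = 0.00253), Ier3 (-1.60, adjusted p = 0.00797) and Fosl1 (-1.46, adjusted p = 0.000167). Not every called gene is named. Of the 14 ERK feedback and ETS genes none was higher and 4 were lower (7 under either scaling), beside 8.08% and 2.18% of all genes. Of the 8 serpins tested 1 was higher and 3 were lower. Of the 12 partners of MET 2 were higher, and of its 20 adaptors and negative regulators 1, with none lower. None was called in the remaining lists.

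For Cdh1, Serpinb2 and Serping1 the sorted cells held little transcript in either condition, at means of at most 0.530, 0.172 and 0.160 TPM, so that the difference rests on the response of unsorted cells. The call for Cd44 was lost on leaving out any 1 of 7 libraries (lowest value 0.89, without UH replicate 1), under median-of-ratios scaling (0.66), quantile normalization (0.87) and without mitochondrial genes (0.99). That for Serpinb8 was lost on leaving out any 1 of 9 libraries (adjusted p up to 0.0758, without SN replicate 2), with no filter on low values (adjusted p = 0.0572), median-of-ratios scaling (adjusted p = 0.067) and quantile normalization (adjusted p = 0.116). That for Serping1 was lost without UN replicate 2 (adjusted p = 0.056), UN replicate 3 (adjusted p = 0.0594) or UH replicate 2 (adjusted p = 0.0519) and with a pseudocount of 0.1 (adjusted p = 0.0977).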

How the results depend on the processing

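Sequencing depth is unknown, members under 1 TPM (Hpn, St14, Spint1) shift with the pseudocount, and 3 libraries a group limit every test; the causes of the changes below were not tested unless the setting itself removes genes or libraries. With median-of-ratios scaling and with quantile normalization, 1 member instead of 2 was called in UH against UN cells, and with a filter at 1 TPM, which removes Hpn, St14 and Spint1, 1 instead of 2 in SH against SN cells. For the difference of responses, 1 member was called, against 0 with the filter at 1 TPM and 2 with median-of-ratios scaling or without mitochondrial genes. With a pseudocount of 0.1 the count was 3 (Hpn, Plaur and St14). SH cells alone carried St14 past the filter, so its call there is not read as a result.

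Over all genes, a pseudocount of 0.1 gave 1580 genes higher in UH than in UN cells (1032 as reported), 2854 higher in SH than in SN cells (1412), 990 higher and 2402 lower in SN than in UN cells (606 and 1431), and 2810 higher and 1550 lower in SH than in UH cells (1447 and 1012). It also gave 4 other proteases called (0), some of which passed the filter only through the group where they were highest. Median-of-ratios scaling gave 1564 higher and 1217 lower in UH than in UN cells (1032 and 2222), 1021 higher and 1323 lower in SH than in UH cells (1447 and 1012), and 901 higher and 782 lower for the difference of responses (1527 and 412). Quantile normalization gave 1445 higher and 1343 lower, 1088 higher and 1239 lower, and 774 higher and 742 lower for these, and 839 higher and 1138 lower in SN than in UN cells.

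The sign turned for uncalled values: Hgf in the difference of responses (1.36 with a pseudocount of 0.1), and Spint2 in UH against UN cells (0.27 with median-of-ratios scaling, 0.25 with quantile normalization), in SH against SN cells (0.055 with quantile normalization) and in the difference of responses (-0.33 with median-of-ratios scaling, -0.20 with quantile normalization, -0.0042 without mitochondrial genes).

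Leaving out 1 library at a time gave 2 to 4 members called in SN against UN cells, 1 to 2 in the difference of responses, 344 to 636 genes lower in that difference, 2 to 5 adaptors and 0 to 1 other proteases called. Values crossed 0 for Hgf (-0.41 to 0.30) and Spint2 (-0.11 to 0.15) in the difference of responses, Met in SH against UN cells (-0.044 to 0.19), and Spint1 (-0.10 to 0.045), Spint2 (-0.19 to 0.077) and Plau (-0.020 to 0.21) in SH against SN cells.

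Of 60 changes of list genes, 15 were lost under at least 1 setting, 12 of them on leaving out a library, and none turned its sign. Same-numbered libraries were not treated as pairs, since their deviations from the group means correlated at -0.06 to 0.14 and 1 of 12 libraries correlated best with its own number. With the replicate number as a block, the members called stayed at 2, 2, 4, 4 and 1 in the 5 comparisons, and no count moved by over 1.5 times.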
